A study of Homo sapiens with 12 samples.

Results

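The miR-148 and miR-152 family is the set of small RNAs cut from the hairpins MIR148A, MIR148B and MIR152. Its members were chosen by name, as the array probes named miR-148a, miR-148b or miR-152 with either arm, which gave 6 of 2565 human miRNA probes: hsa-miR-148a-3p (MIMAT0000243), hsa-miR-148b-3p (MIMAT0000759), hsa-miR-152-3p (MIMAT0000438), hsa-miR-148a-5p (MIMAT0004549), hsa-miR-148b-5p (MIMAT0004699) and hsa-miR-152-5p (MIMAT0026479). The species prefix is left out below. They were measured in KYSE150, an established human cell line of oesophageal squamous cell carcinoma, on 12 single-colour 3D-Gene arrays, 1 sample per array. The control group was 6 samples without galectin-9. The treated group was 6 samples exposed for 6 h to 100 nM galectin-9, a secreted sugar-binding protein of the galectin family. Both groups were grown in Ham's F12 medium with 2% fetal bovine serum. The series was made to look for miRNAs that accompany tumour suppression by galectin-9. All samples come from 1 cell line. Nothing in the labels says that the numbered samples were grown separately, and the p-values here rest on array-to-array spread that may be no more than technical.

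A miRNA hairpin is cut into a 5p and a 3p strand, and the strand that enters the Argonaute protein represses messenger RNAs that pair with its seed, bases 2 to 8. In this family the 3p strands are the ones usually retained, and the 5p strands are mostly passenger arms. The 3p strands are known to repress the DNA methyltransferase gene DNMT1 and the immune checkpoint gene HLA-G. Lowered miR-148a and miR-152 have been described in tumours of the digestive tract, often with methylated DNA near their genes.

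The 3p strands carry 1 seed, and the shared bases are the ones that mainly set which messenger RNAs can be paired. Their mature sequences follow from 5′ to 3′, from RefSeq on GRCh38.p14, with the seed in capitals.
miR-148a-3p, chr7:25949922-25949943, minus strand: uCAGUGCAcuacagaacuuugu
miR-148b-3p, chr12:54337278-54337299, plus strand: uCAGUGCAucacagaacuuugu
miR-152-3p, chr17:48037174-48037194, minus strand: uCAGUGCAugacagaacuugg

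Counted from base 1 at the 5′ end, miR-148a-3p and miR-148b-3p were identical at 20 of 22 bases and differed by C9U and U10C. miR-152-3p has 21 bases, and against miR-148b-3p it differed by C10G and U20G. Among the mature miRNAs of the RefSeq table, the seed CAGUGCA was found in these 3 and in no other. Probes for such similar strands can share signal, which was not tested.

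The 5p arms are shown because they do not share a seed, so they are not 1 family by that criterion. miR-148b-5p and miR-152-5p differed by A2G, U10G, A19C and G21A over 22 compared bases, and the change A2G lies within the seed.
miR-148b-5p, chr12:54337240-54337261, plus strand: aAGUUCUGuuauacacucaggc
miR-152-5p, chr17:48037210-48037232, minus strand: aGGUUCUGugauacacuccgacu

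The hairpins show how the arms lie in the precursor, with the mature strands that RefSeq lists in capitals. MIR148B lies within COPZ1 and MIR152 within COPZ2, which code for paralogous zeta subunits of the COPI vesicle coat. MIR148A overlaps the long non-coding RNA gene LOC105375199, and its nearest protein-coding gene is NFE2L3, a transcription factor gene 202212 bases away.
MIR148A: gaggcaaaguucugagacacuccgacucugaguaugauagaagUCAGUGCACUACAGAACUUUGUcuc
MIR148B: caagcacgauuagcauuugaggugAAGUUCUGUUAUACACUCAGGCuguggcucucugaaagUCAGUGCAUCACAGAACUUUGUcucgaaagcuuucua
MIR152: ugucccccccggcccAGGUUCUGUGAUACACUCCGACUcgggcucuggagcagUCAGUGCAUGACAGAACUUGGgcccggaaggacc

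The arrays separated the family into a clearly measured pair and 4 probes at the limit of detection. A probe is called detected where the file lists a background-subtracted intensity, that is, where its raw intensity lies more than 2 SD of the blank spots above their mean. miR-148a-3p and miR-148b-3p were detected on 12 of 12 arrays. miR-148b-5p and miR-152-5p were each detected on 9 arrays, miR-148a-5p on 7 and miR-152-3p on 3. The undetected levels have only an upper bound, and intensities of different probes are not compared as levels.

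The distance from the blank spots shows the same division. For miR-148a-3p the signal lay 16.6 to 46.6 blank SD above background in control and 32.3 to 51.1 in galectin-9 arrays. For miR-148b-3p it lay 20.7 to 39.1 SD above background in control and 34.5 to 56.9 in galectin-9 arrays. The highest signal of any of the other 4 probes was 5.28 SD, for miR-148a-5p on galectin-9 array 1. miR-152-3p did not exceed 3.86 SD, on control 3, and went down to -0.59 SD on control 4.

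**Figure D1:**
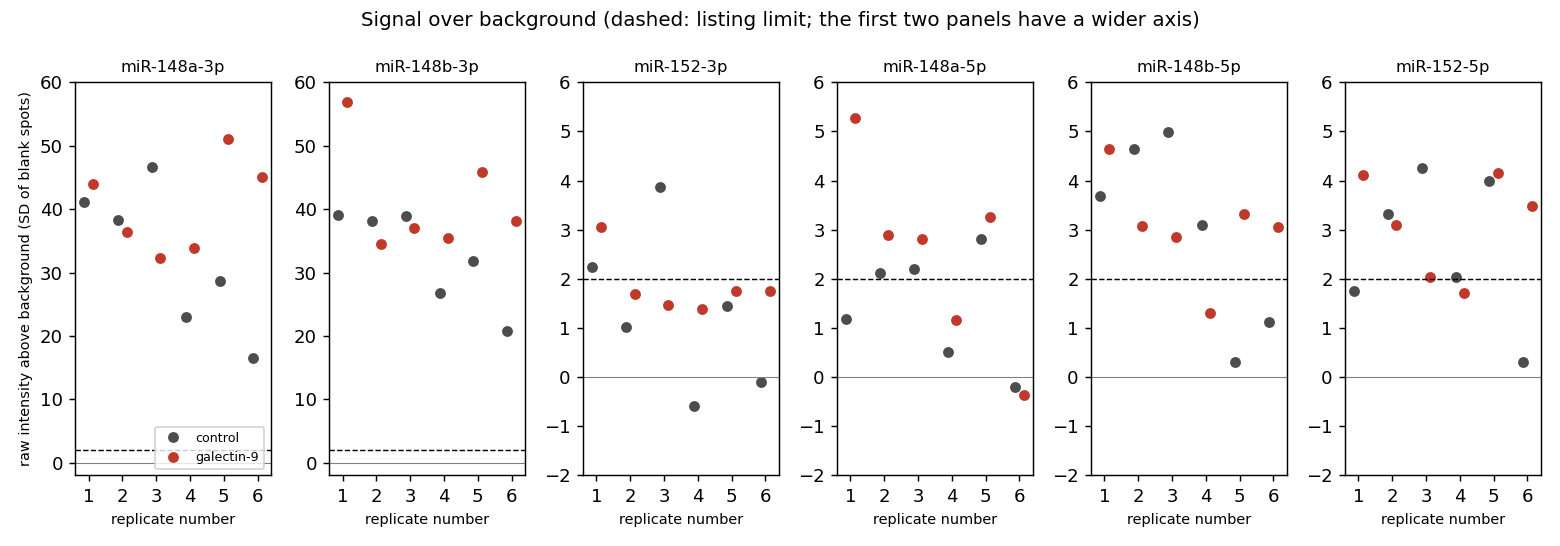
Raw intensity minus background, in SD of the blank spots (y axis), for the 6 family probes by replicate number (x axis), with control arrays in grey and galectin-9 arrays in red. The dashed line is the listing limit of 2 SD, and the panels of miR-148a-3p and miR-148b-3p have a wider y axis; miR-148a-3p and miR-148b-3p lie at 16.6 SD or more on every array, and the other 4 probes scatter around the limit.

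The arrays differed in how many of the dim members they detected, and this did not follow their total of detected probes throughout. Between 934 and 1895 human miRNA probes were detected on control arrays and between 1551 and 2045 on galectin-9 arrays. Control 6, with the fewest, detected 0 of the 4 dim members, and galectin-9 array 4, with 1551, detected 0 as well. All 4 were detected on control 3 and on galectin-9 array 1, where 1895 and 2045 probes were detected. In between, 3 were detected on control 2 and on galectin-9 arrays 2, 3 and 5, which had 1894, 1819, 1588 and 1885 probes. On controls 1, 4 and 5 and on galectin-9 array 6 it was 2, with 1759, 1361, 1512 and 1973 probes. Controls 4 and 5 thus detected more dim members than galectin-9 array 4 with fewer probes in all. Array positions and slides were read from the file names: each of 3 slides held 2 control arrays, both at odd positions, and 2 treated arrays, both at even ones. An effect of position parity and one of galectin-9 therefore cannot be told apart in any difference given here.

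Detection of marker probes is given as a description, and it cannot by itself check the cell line label. Detection was common: of 2565 human miRNA probes, every array listed 891, and 1734 were listed by 6 arrays or more. Some markers of other tissues also reached as many arrays as squamous ones. The squamous markers miR-205-5p, miR-203a-3p and miR-31-5p were detected on all 12 arrays and miR-944 on 11, and 3 of 3 epithelial markers of the miR-200 family were detected on all 12. Of the 4 blood cell markers 0 were detected on all arrays, with 4 arrays for miR-451a, 6 for miR-223-3p and 11 each for miR-142-3p and miR-150-5p. Of the muscle markers, miR-1-3p was detected on 0 arrays, miR-133a-3p on 5 and miR-206 on 8, and the neuronal marker miR-124-3p was detected on 3. The liver marker miR-122-5p was detected on 7 and the mesenchymal miR-143-3p and miR-145-5p on 8 each. miR-126-3p, a marker of endothelium, was detected on all 12. Its difference between the groups was -0.02 on the log2 scale (limma adjusted p = 0.952).

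With galectin-9 the 2 well-measured family members showed levels close to those of the control cells. Levels below are log2 quantile-normalised intensities. miR-148a-3p ranged from 4.90 through a median of 5.06 to 5.20 on control arrays and from 4.67 through 5.09 to 5.39 on galectin-9 arrays. The galectin-9 group held both the lowest value, on array 1, and the highest, on array 5, and the groups overlapped over the whole control range. The means were 5.06 ± 0.12 and 5.08 ± 0.25 (SD, n = 6 each). The log2 difference was 0.02 (95% interval -0.24 to 0.28), a fold of 1.01 with bounds of 0.846 and 1.22, and did not pass (limma adjusted p = 0.952).

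miR-148b-3p, the paralog from within COPZ1, ranged from 4.92 through 5.08 to 5.34 on control arrays and from 4.93 through 5.17 to 5.27 on galectin-9 arrays. The galectin-9 values lay inside the control range. The means were 5.12 ± 0.18 and 5.13 ± 0.12 (SD, n = 6 each). The log2 difference was 0.01 (95% interval -0.21 to 0.24, limma adjusted p = 0.964), a fold of 1.01 with bounds of 0.863 and 1.18. These intervals hold for quantile normalisation. With median scaling, which moved the median log2 difference of the probes detected on all arrays from -0.02 to 0.25, miR-148a-3p had 0.31 and miR-148b-3p 0.28, above the intervals' upper ends (limma adjusted p = 0.494 and 0.495). Relative to that median they were 0.06 and 0.03.

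**Figure D2:**
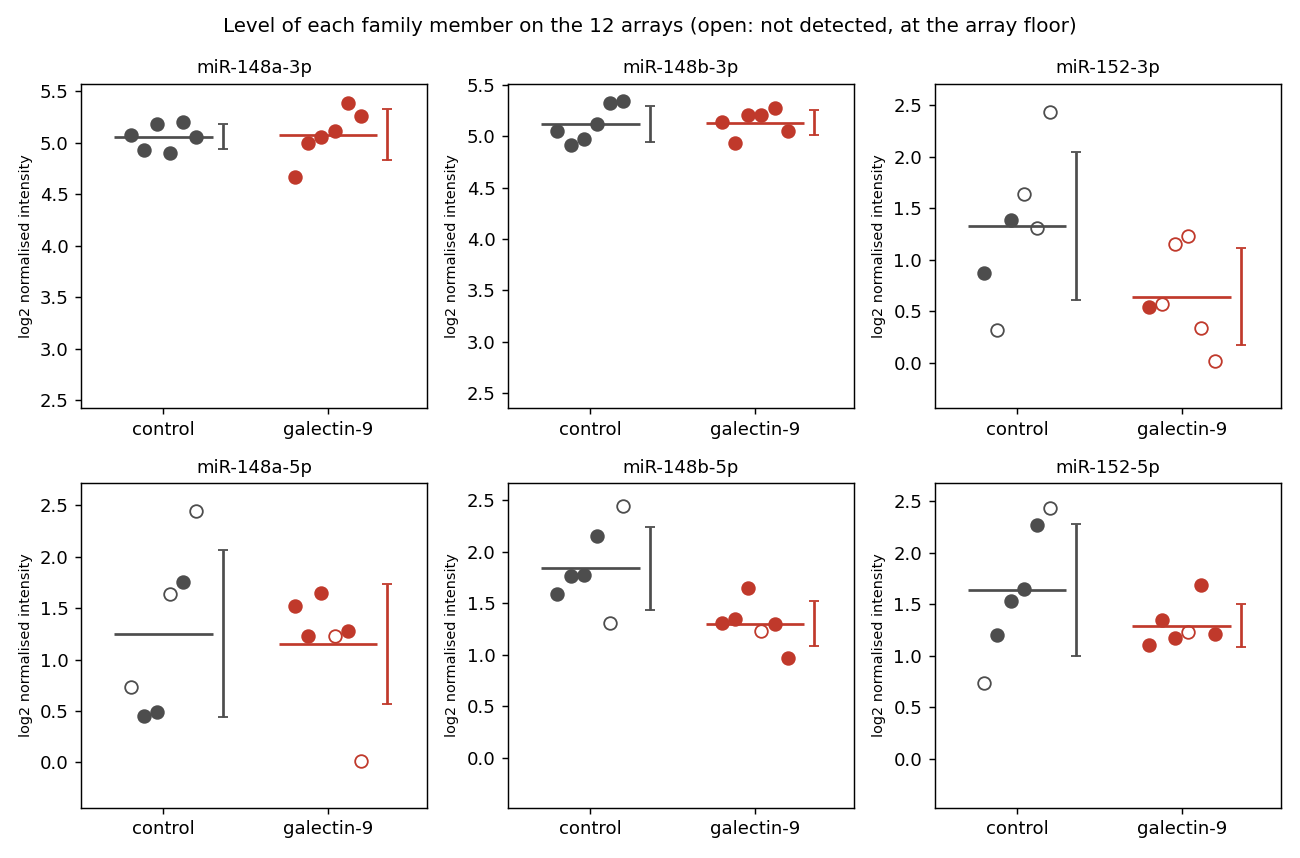
Log2 normalised intensity (y axis) of the 6 family probes on the 6 control (grey) and 6 galectin-9 arrays (red). Filled points are detected, open points are undetected and drawn at the array's floor, lines are means and bars 1 SD; miR-148a-3p and miR-148b-3p overlap between the groups, and the open point at 2.44 in the panels of the 4 dim members is control 6. Panels differ in the values their y axes start from.

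Over the whole table of 1734 tested probes, 3 were called higher with galectin-9 and 0 lower at an adjusted p under 0.05, 0.173% of those tested, and 0 of the 5 tested family members were among them. With the replicate number as a block, 1 was called higher and 0 lower. With normexp background correction the calls were 13 higher and 6 lower. At an unadjusted p under 0.05, 12.9% of tested probes differed, 4.21% higher and 8.65% lower. Groups that did not overlap were found for 0 of the 5 members and for 1.56% of tested probes. Of the 5 tested members 1 was at an unadjusted p under 0.05, miR-148b-5p toward lower. The median log2 difference of the 5 was -0.10, of all tested probes -0.07. As the RNA came from whole cultures, fewer cells with a miRNA and less of it per cell cannot be told apart.

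The differences of the bright pair were also small within slides and had no common sign. For miR-148a-3p the log2 difference was -0.17 on slide 1, 0.04 on slide 2 and 0.20 on slide 3. For miR-148b-3p it was 0.05, 0.16 and -0.17 on the same slides. Each was higher with galectin-9 in 4 of 6 pairs of equal replicate number, from -0.41 to 0.21 for miR-148a-3p and from -0.29 to 0.23 for miR-148b-3p. When single arrays were left out, the difference went from -0.04 without galectin-9 array 5 to 0.10 without galectin-9 array 1 for miR-148a-3p. For miR-148b-3p it went from -0.03 without control 2 to 0.06 without control 6.

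The spread of the pair between arrays was in the lower part of the range for miRNAs detected on all arrays, that of miR-148a-3p only just below its middle. Brightness was not matched in this comparison. The SD within groups was 0.196 for miR-148a-3p and 0.153 for miR-148b-3p, against a median of 0.209 over the 891 probes detected on all arrays. Of these, 401 had a smaller SD than miR-148a-3p and 225 a smaller one than miR-148b-3p.

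The passenger arm miR-148b-5p had the family's smallest p. It was detected on controls 1 to 4 with background-subtracted intensities of 3.64, 4.14, 4.19 and 3.66, and fell under the listing limit on controls 5 and 6. On galectin-9 arrays 1, 2, 3, 5 and 6 it had 3.49, 2.78, 2.81, 2.49 and 2.29, and fell under the limit on array 4. Before normalisation the 4 detected control values thus lay above the 5 detected galectin-9 values. The undetected controls 5 and 6, at 0.281 and 1.78, lay below all 5 of these galectin-9 values. Once quantile-normalised, the detected values overlapped, with a log2 level of 1.59 on control 1 and 1.65 on galectin-9 array 3.

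After normalisation the log2 level of miR-148b-5p ranged from 1.31 through 1.77 to 2.44 on control arrays and from 0.97 through 1.30 to 1.65 on galectin-9 arrays, so the groups overlapped. The highest control value is the floor of control 6, an upper bound and not a measured level. The means were 1.84 ± 0.40 and 1.30 ± 0.22 (SD, n = 6 each). The log2 difference was -0.54 (95% interval -0.93 to -0.15), a fold of 0.688 with bounds of 0.526 and 0.900. It did not pass (limma unadjusted p = 0.0103, limma adjusted p = 0.276). With undetected values at the floor, 6 of 6 pairs were lower. In pairs 5 and 6 the control value was such a floor. Before normalisation, background-subtracted intensity there was higher on the galectin-9 array, 2.49 against 0.281 and 2.29 against 1.78. After quantile normalisation with no floor set, the galectin-9 array was higher in pair 5 but still lower in pair 6. Without control 6 the difference was -0.42 (limma adjusted p = 0.384). Over the 3 pairs in which both arrays detected it, chosen after the data were seen, the mean was -0.28 with no test. With median scaling it was -0.14 (limma adjusted p = 0.739). Normexp adds an offset of 50 to intensities that are about 4 or less here, which draws log2 differences toward 0 by construction, so its -0.02 is no estimate of the same size.

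The floors of the arrays moved in the same direction. They averaged 1.13 ± 0.83 on the 6 control arrays and 0.50 ± 0.62 on the 6 treated ones, so that a probe detected nowhere shows a log2 difference of -0.63. Among the 843 tested probes not detected on all arrays, the median log2 difference was -0.17, 43 (5.10%) were lower in all 6 pairs, and 92 (10.9%) were lower at an unadjusted p under 0.05. When all arrays got the highest of the floors, 2.44, the 4 dim members stood at that floor on every array and had no difference to test. The part of the floors in the value of miR-148b-5p was not tested.

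**Figure D3:**
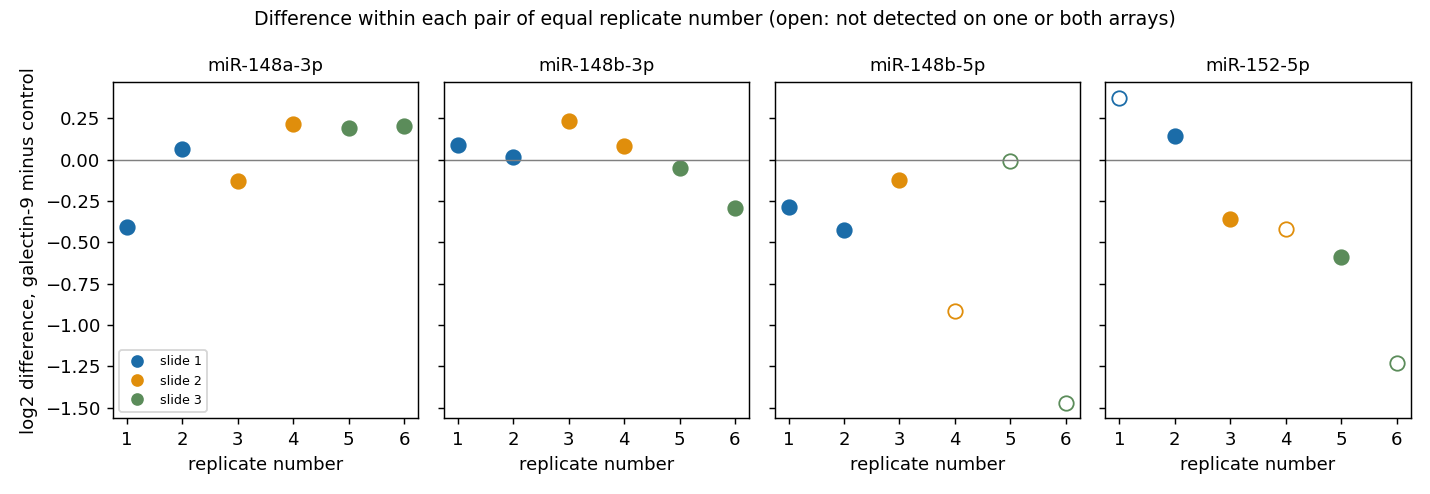
Log2 difference of galectin-9 minus control within each pair (y axis) against the replicate number (x axis), coloured by slide, for 4 family members. Open points are pairs in which a probe was undetected on an array. miR-148b-5p lies below 0 in 6 of 6 pairs, in pairs 5 and 6 with the control at its floor. It goes down to -1.47 in the pair that holds control 6, and its 3 filled points lie between -0.42 and -0.12.

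miR-152-5p, the passenger arm of MIR152, was detected on controls 2 to 5 and on all galectin-9 arrays but array 4. Its level ranged from 0.74 through 1.59 to 2.44 on control arrays and from 1.11 through 1.22 to 1.69 on galectin-9 arrays. The galectin-9 values lay inside the control range, whose ends are both floors. The log2 difference was -0.35 (95% interval -0.90 to 0.20, limma adjusted p = 0.582), and it was -0.19 without control 6 and 0.04 with median scaling.

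miR-148a-5p, the passenger arm of MIR148A, was detected on controls 2, 3 and 5 and on galectin-9 arrays 1, 2, 3 and 5. Its level ranged from 0.45 through 1.19 to 2.44 on control arrays and from 0.01 through 1.25 to 1.64 on galectin-9 arrays. The galectin-9 group had the lowest value and the control group the highest, both of them floors. The log2 difference was -0.10 (95% interval -0.90 to 0.70, limma adjusted p = 0.926). It was 0.14 without control 6, 0.13 without galectin-9 array 6 and 0.002 without control 5. Its sign turned, too, over the 3 pairs detected on both arrays, with a mean of 0.49 and no test.

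miR-152-3p, the main strand of MIR152, was detected on controls 1 and 3 and on galectin-9 array 1, too few for the test, which asked for 6 arrays. Its background-subtracted intensity there was 2.21, 3.24 and 2.30. On the other 9 arrays it was under the listing limit, which reached 3.19 intensity units above background, on control 6. Whether galectin-9 changes miR-152-3p was not detectable at this signal. With no filter its log2 difference was -0.68 (limma adjusted p = 0.425), close to the -0.63 of the floors, at which 9 of its 12 values were set.

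The change of a member was then set against that of another, array by array, over 6 pairs of members chosen as arms of a hairpin or as paralogs. miR-148a-3p and miR-148b-3p changed by amounts that differed by 0.01 (95% interval -0.27 to 0.29, exact permutation p = 0.950, adjusted p = 0.950, two-sided). The interval bounds how unequal the changes in signal of the 2 probes were, and signal shared between these probes was not tested. The arms of MIR148B differed by 0.55 (95% interval 0.13 to 0.97), the 3p arm standing at 0.01 and the 5p arm at -0.54 (exact permutation p = 0.0238, adjusted p = 0.143). This pair passed only without control 5 (0.70, exact permutation adjusted p = 0.0130), on which miR-148b-5p was undetected.

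The arms of MIR148A differed by 0.12 (exact permutation p = 0.797, adjusted p = 0.950), and the arms miR-148a-5p and miR-148b-5p by 0.44 (exact permutation p = 0.227, adjusted p = 0.341). The differences against miR-152-3p, 0.71 for miR-148a-3p and 0.70 for miR-148b-3p, rest on 9 arrays at the floor (exact permutation adjusted p = 0.182 and 0.143).

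Replicates 1, 3 and 5 of both groups lay at slide positions 1 and 2, the other replicates at positions 3 and 4. For miR-148a-3p the log2 difference between the groups was -0.12 at positions 1 and 2 and 0.16 at positions 3 and 4, and the change differed by 0.28 between them (95% interval -0.25 to 0.81, limma adjusted p = 0.756). For miR-148b-3p the values were 0.09 and -0.06 (limma adjusted p = 0.851). miR-148b-5p had -0.14 at positions 1 and 2 and -0.94 at positions 3 and 4, a difference of -0.80 (95% interval -1.42 to -0.17, unadjusted p = 0.0172, limma adjusted p = 0.453). Positions 3 and 4 include control 6 and galectin-9 array 4. Of all tested probes 0 passed for this difference (0%), with 8.77% at an unadjusted p under 0.05.

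The values of miR-148a-3p and miR-148b-3p did not follow each other closely over the arrays. After the group means were removed, Pearson's r between them was 0.26 and Spearman's rho 0.29 over 12 arrays, which share slides and a common normalisation. Such spread within groups may be technical, so r does not decide whether the 2 probes share signal. In the order of likeness to miR-148a-3p, miR-148b-3p was number 232 of 890 probes, and in the reverse order miR-148a-3p was number 262. The 3 probes most like miR-148a-3p were let-7f-1-3p, a passenger arm of a let-7 hairpin (r = 0.889, rho = 0.853), miR-28-3p (r = 0.795, rho = 0.775) and miR-205-3p, the passenger arm of the squamous miR-205 (r = 0.773, rho = 0.671). Without galectin-9 arrays 1 and 5, the farthest for miR-148a-3p, r fell to 0.726, 0.587 and 0.661. The 3 most like miR-148b-3p were miR-331-3p (r = 0.870, rho = 0.855), miR-27b-5p (r = 0.852, rho = 0.858) and miR-632 (r = 0.819, rho = 0.862), and without controls 5 and 6 r was 0.785, 0.902 and 0.752. These are the highest of 890 values each and are given as a description.

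Other miRNAs share 6 bases with the 3p members, AGUGCA. In miR-454-3p, miR-301b-3p and miR-130b-3p these bases lie 1 base nearer the 5′ end than in miR-148a-3p, and in miR-519a-3p they lie at the same place. The following mature strands, from RefSeq on GRCh38.p14, show these bases in capitals and are given because pairing through them is open to the listed miRNAs and to the family.
miR-148a-3p: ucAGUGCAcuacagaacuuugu
miR-454-3p, chr17:59137787-59137809, minus strand: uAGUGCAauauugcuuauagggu
miR-301b-3p, chr22:21653025-21653047, plus strand: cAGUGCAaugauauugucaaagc
miR-130b-3p, chr22:21653354-21653375, plus strand: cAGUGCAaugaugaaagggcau
miR-519a-3p, chr19:53752449-53752470, plus strand: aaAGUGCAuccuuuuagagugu

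Of the 7 listed miRNAs of the miR-130, miR-301 and miR-454 group and its relatives, 5 were tested and 0 passed in either direction. These 5 were detected on all 12 arrays. The 891 probes so detected had a median log2 difference of -0.02, with 398 above 0, and all tested probes had -0.07. Among the 5 tested of the list, 4 lay above 0 and the median was 0.19. Those with the smallest p were miR-454-3p, with 0.25 (95% interval 0.06 to 0.44, limma adjusted p = 0.293), miR-301b-3p, with 0.52 (0.11 to 0.92, limma adjusted p = 0.300), and miR-130b-3p, with 0.19 (-0.01 to 0.39, limma adjusted p = 0.390). The other tested members of the list, miR-130a-3p and miR-301a-3p, had 0.09 and -0.06 (limma adjusted p = 0.773 and 0.823). The bases AGUGCA were also found in miR-4671-3p and in miR-519a-3p, miR-519b-3p and miR-519c-3p of the placental chromosome 19 cluster, looked up after the list was made, with their values in view. Among these, miR-519a-3p had a log2 difference of -0.51 (limma adjusted p = 0.141) and miR-519b-3p -0.05 (limma adjusted p = 0.945), and the other two were not tested.

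The second list held 9 other miRNAs described to repress a DNA methyltransferase gene, the function for which miR-148a-3p and miR-152-3p are best known. Of these 8 were tested and 0 were called in either direction. Of all tested probes 36.6% lay above 0, with a median log2 difference of -0.07. Of the 891 probes detected on all arrays, as 6 of these 8 were, 398 lay above 0, with a median of -0.02. Among the 8 of the list 6 lay above 0, and their median log2 difference was 0.10. The smallest p belonged to miR-29c-3p, which targets DNMT3A and DNMT3B, with 0.28 (95% interval 0.06 to 0.50, limma adjusted p = 0.300). miR-143-3p, which targets DNMT3A and was detected on 8 arrays, had -0.71 (limma adjusted p = 0.310), close to the difference of the floors. miR-185-5p, which targets DNMT1, had 0.18 (-0.01 to 0.37, limma adjusted p = 0.391).

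**Figure D4:**
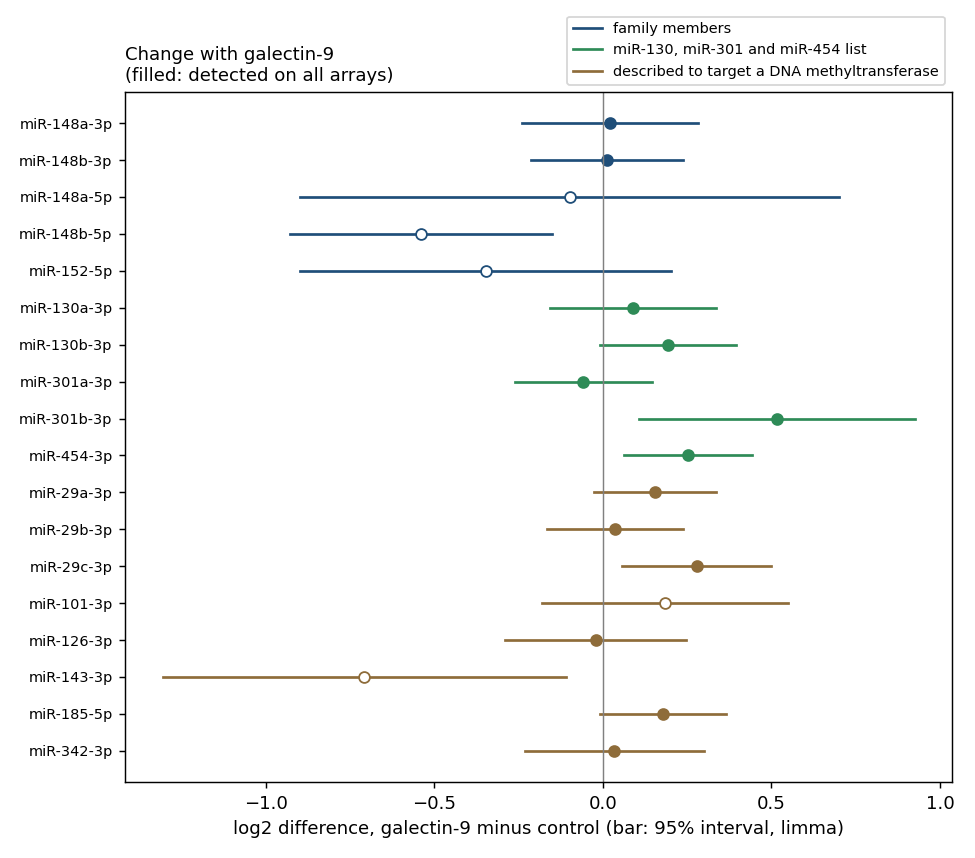
Log2 difference of galectin-9 minus control (x axis) with its 95% interval for the 5 tested family members (blue), the 5 tested miRNAs of the miR-130, miR-301 and miR-454 list (green) and the 8 tested miRNAs described to repress a DNA methyltransferase gene (brown). Filled points were detected on all 12 arrays; the filled family points lie at 0.02 and 0.01, the open ones have wider intervals, and 0 of the 18 passed the adjusted test.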

How the data were processed

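The deposited array files hold, per the file headers, 3 linear intensity values for each spot: raw, background-subtracted and globally normalised. The submitters' labels name the 3D-Gene labelling kit; no scanner or software is named there. Setting the columns against each other showed that the authors subtracted the mean of the 320 blank spots, trimmed by 5% at each end, listed values more than 2 SD above it, and scaled the listed ones to a median of 25. The authors' deposited series table holds 891 probes as quantile-normalised linear intensity.

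Here, raw intensity minus background was quantile-normalised over 2565 human miRNA probes (limma 3.58.1, R 4.3.3), 6 spots marked not good were left out, undetected values were set to the array's lowest detected value (its floor), and log2 was taken. The 1734 probes detected on at least 6 arrays were tested with limma's lmFit and eBayes, two-sided, with Benjamini-Hochberg adjustment at 0.05. Differences between members were tested with exact permutation over the arrays. The fit and the permutation tests were tested on simulated data. The number of arrays limits the precision. miR-152-5p meets the naming rule but was added to the other 5 members after the files were read. The members and lists were chosen with earlier results of these data known. Named are all members, from each list the 3 with the smallest unadjusted p, and for each member detected on all arrays the 3 probes with the highest r.

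Arrays correlated at 0.975 or more over the 891 probes. The labels number replicates 1 to 6 in both groups. Deviations of equally numbered arrays correlated at 0.171 to 0.527 in 6 of 6 pairs. The numbers were therefore taken as pairs for the differences within pairs and for the replicate block. The main limma fit and the main permutation tests did not use the pairing. Equal numbers also lie at neighbouring slide positions. Alternatives were median scaling, normexp with an offset of 50, other filters, a common floor, the series table, slide and replicate blocks, and leaving out arrays, slides or positions.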

Additional observations from a re-analysis of the deposited data

Results flagged for a closer look

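In the galectin-9 group, array 6 stood far below the others for miR-148a-5p, with a log2 level of 0.01 against 1.23 for the next lowest array. The probe was undetected there, and the value is that array's floor. The same array was lowest for the difference of miR-148a-5p and miR-148b-5p, with -0.95 against -0.11 for the next. Of 26 groups of values 2 were picked out, both through miR-148a-5p on this array. About 1 of 20 groups would be expected by chance among measured and independent values, and this rate was not worked out for floors.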

How the results depend on the processing

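Adjusted p-values of the 5 tested members stayed above 0.05 under every alternative run, with a smallest limma adjusted p of 0.192 for miR-148b-5p without control 5. The replicate block changed no member's call (limma adjusted p = 0.936 for miR-148a-3p, 0.954 for miR-148b-3p, 0.315 for miR-148b-5p). Median scaling moved the median log2 difference of the 891 probes detected on all arrays from -0.02 to 0.25, and miR-148a-3p to 0.31 and miR-148b-3p to 0.28, that is 0.06 and 0.03 above that median. The series table and normexp gave miR-148a-3p 0.02 and 0.01.

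Called counts depended on the setting. Calls were 13 higher and 6 lower with normexp, and 6 higher and 3 lower over probes detected on all arrays, with a common floor and with the series table. The slide block gave 4 higher and 1 lower, the replicate block 1 higher and 0 lower, and leaving out slide 1, 2 or 3 or keeping only positions 1 and 2 or 3 and 4 gave 0 higher. Without single arrays, 2 to 3 were higher and 0 to 2 lower.

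Some signs turned, with adjusted p above 0.05 where a test was run, and the cause was not tested. With median scaling miR-148a-5p had 0.32 and miR-152-5p 0.038, the change by position was 0.047 for miR-148b-3p and 0.21 for miR-152-5p, and the arms of MIR148A differed by -0.0098. With normexp, whose offset of 50 draws log2 differences of dim probes toward 0, miR-148a-5p had 0.006 and the change by position was 0.0051 for miR-152-5p. Without slide 1 and slide 2 miR-148b-3p had -0.0075 and -0.060. Without slide 3 miR-148a-3p had -0.066, miR-148a-5p 0.58, the 3p paralogs differed by -0.17 and the arms of MIR148A by -0.64. At positions 1 and 2 alone these were -0.12, 0.49, -0.21 and -0.60, and at positions 3 and 4 miR-148b-3p had -0.065. Over pairs detected on both arrays miR-148a-5p had 0.49, and without replicate pair 6 it had 0.37 and miR-148a-3p -0.0152, both added after seeing the data.

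Without single arrays the log2 difference went from -0.0405 to 0.10 for miR-148a-3p, -0.26 to 0.14 for miR-148a-5p, -0.0276 to 0.0565 for miR-148b-3p, -0.64 to -0.42 for miR-148b-5p and -0.53 to -0.19 for miR-152-5p. The change by position went from 0.09 to 0.45 for miR-148a-3p, -1.70 to -0.71 for miR-148a-5p, -0.26 to -0.05 for miR-148b-3p, -0.97 to -0.64 for miR-148b-5p and -0.69 to 0.077 for miR-152-5p. The pair differences went from -0.0443 to 0.0919 for miR-148a-3p against miR-148b-3p, -0.14 to 0.30 for the arms of MIR148A and 0.48 to 0.70 for those of MIR148B. They went from 0.48 to 0.88 and from 0.52 to 0.86 for miR-148a-3p and miR-148b-3p against miR-152-3p, and from 0.30 to 0.65 for miR-148a-5p against miR-148b-5p. Under the common floor the dim members gave no value, and the series table holds only the bright pair. Signal near background limits what can be said of the 4 dim probes.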
